A study of Mus musculus with 4 samples.

Results

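The interleukin-1 family and its receptors were followed in Langerhans cells, which are dendritic cells that sample antigen within the epidermis. The 8 genes were Il1a, Il1b, Il1rn, Il18, Il1r1, Il1r2, Il1rap and Casp1, of 12393 genes with a probe set of their own. Every probe set that the platform annotation gives to one of them alone was taken, which made 12 of 22626 probe sets, and all 12 were tested without a filter on low values. Cells of AhR-deficient mice, which lack exon 2 of the gene for the aryl hydrocarbon receptor (2 arrays), were set against cells of wild-type C57BL/6 mice (2 arrays). The mice were untreated, and their age and the number pooled per array are not given in the sources used here. Both genotypes shared the same handling: ear epidermis, 16 hours of culture, density enrichment to 20 to 35% Langerhans cells and sorting of viable cells bearing MHC class II, with a stated purity above 95%. The RNA was amplified before it was hybridised to Affymetrix arrays. A value below is the deposited log2 signal of a probe set, in which a step of 1 is a doubling. Probe sets bind with different strength, so the genotypes are compared only on the same probe sets. Where marker signals are summed, the brighter probe sets weigh most, and a ranking of signals between probe sets is only a description. The 16 hours of culture precede every array, so these are not cells as they lie in the skin.

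Interleukin-1 alpha and interleukin-1 beta bind the signalling receptor IL-1R1, which recruits the accessory protein IL-1RAcP and starts MyD88-dependent NF-kB signalling. The receptor antagonist occupies IL-1R1 without signalling, and IL-1R2 is a decoy that binds the cytokine but lacks the signalling domain. Interleukin-1 beta and interleukin-18 are made as precursors that caspase-1 cleaves within the inflammasome. In mouse epidermis Langerhans cells are a known source of interleukin-1 beta, which promotes their own departure to the lymph node, and keratinocytes store interleukin-1 alpha and interleukin-18.

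AhR is a ligand-activated transcription factor whose complex with ARNT recognises the core letters GCGTG. The start sites of Il1b and Il1r2 are shown because these genes had the largest differences between the genotypes, in opposite directions. The letters are the 250 bases before the annotated start, from RefSeq on GRCm38.p6, written 5′ to 3′ on the strand of the gene. Capitals mark GCGTG or its other strand CACGC, and the letters TATAA or their other strand TTATA. The Il1b window is chr2:129371140-129371389 on the minus strand and the Il1r2 window is chr1:40085843-40086092 on the plus strand.
Il1b: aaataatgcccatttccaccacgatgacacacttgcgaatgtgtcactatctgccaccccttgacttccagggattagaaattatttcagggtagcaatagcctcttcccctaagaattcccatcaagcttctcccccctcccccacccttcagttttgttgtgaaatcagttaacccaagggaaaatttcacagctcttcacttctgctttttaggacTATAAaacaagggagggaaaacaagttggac
Il1r2: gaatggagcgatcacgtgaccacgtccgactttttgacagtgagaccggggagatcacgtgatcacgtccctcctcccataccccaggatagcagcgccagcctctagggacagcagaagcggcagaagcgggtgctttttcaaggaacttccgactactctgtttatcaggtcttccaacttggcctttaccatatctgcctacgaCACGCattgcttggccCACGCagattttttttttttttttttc
The Il1b window held TATAA and no GCGTG core, and the Il1r2 window held 2 GCGTG cores, both as CACGC, and no TATAA. RefSeq gave 11 windows for the 8 genes, of which 4 held a GCGTG core (Il1r2, Il1rap, 1 of the Il1rn windows and 1 of the Il1r1 windows). The Il1rap window held the most, with 4 cores, and Il1rap differed least between the genotypes. Among 32851 windows of the same length genome-wide, 28.2% held a GCGTG core and 22.8% held TATAA. A match of letters is a description of the window, not a binding site. The Il1a and Il1b windows lie 61.2 kb apart. The Il1r2 window lies 139.0 kb from the nearer Il1r1 window, which held no GCGTG core.

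The genotype labels were first set against Ahr and its target Ahrr. The brighter of 2 Ahr probe sets had 8.55 and 8.60 in AhR-deficient cells, against 7.61 and 8.23 in wild-type cells, and the other had 6.38 and 6.41 in AhR-deficient cells, against 6.27 and 6.30 in wild-type cells. The annotation does not say whether their probes lie in the deleted exon, so this does not check the labels. Ahrr, the AhR repressor, had 5.32 and 5.09 in AhR-deficient cells, against 8.26 and 8.38 in wild-type cells, and fell by 3.11 (SE 0.11; limma, adjusted p = 0.0403). Leaving out any 1 array kept the difference between -3.22 and -3.0 but ended that call, with adjusted p-values from 0.198 to 0.469 in limma. The call was also lost with a replicate block (limma, adjusted p = 0.895) and with 16 added on the linear scale (limma, adjusted p = 0.0902). Cd207, which encodes langerin and defines Langerhans cells, was bright on all arrays, at 11.21 and 11.71 in AhR-deficient cells, against 11.00 and 12.06 in wild-type cells. The wild-type replicate 1 array stood furthest from AhR-deficient replicate 1 (r = 0.979 over probe sets), below the other 5 pairs of arrays (0.987 to 0.990). For Actb, the 3′ probe set exceeded the 5′ probe set, a measure of RNA integrity and amplification, by a log2 difference of 2.34 and 2.61 in AhR-deficient cells, against 3.16 and 2.65 in wild-type cells. This did not overlap between genotypes. The same measure for Gapdh was 2.24 and 2.19 in AhR-deficient cells, against 2.60 and 1.97 in wild-type cells, which overlapped. The part of these measures in the values below was not tested.

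Within the family, the signals for the cytokines Il1b and Il1a and for the antagonist Il1rn exceeded both wild-type arrays in each AhR-deficient array, and those for the cytokine Il18, the signalling receptor Il1r1 and the decoy receptor Il1r2 lay under them. For Il18 and Il1r1 the nearest arrays of the genotypes were 0.04 and 0.03 apart. None of the 12 probe sets passed the adjusted threshold of 0.05 in limma (smallest adjusted p = 0.533), which 0.0177% of all probe sets passed. At an unadjusted p under 0.05 there were 5 of the 12, or 41.7%, against 6.00% of all probe sets, and 3 of the 12 when either AhR-deficient array was left out. Both AhR-deficient arrays lay above both wild-type arrays for 6 of the 12, against 19.0% of all probe sets, and below them for 4 of the 12, against 16.2%. The higher ones include Il1rap 1421843_at and Il1rn 1423017_a_at, with the nearest arrays 0.04 and 0.02 apart. The lower ones include Il1rap 1449585_at, dim on every array, with a gap of 0.003. The lower count was 3 with quantile normalisation again or with dim probe sets left out, and the latter left 5 higher. Probe sets of the same gene are counted singly here and are not independent. The members were chosen with earlier results of these data known, so these shares do not test the family. With 2 arrays a genotype, an exact permutation test cannot reach a small p, so none is given for single values.

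**Figure D1:**
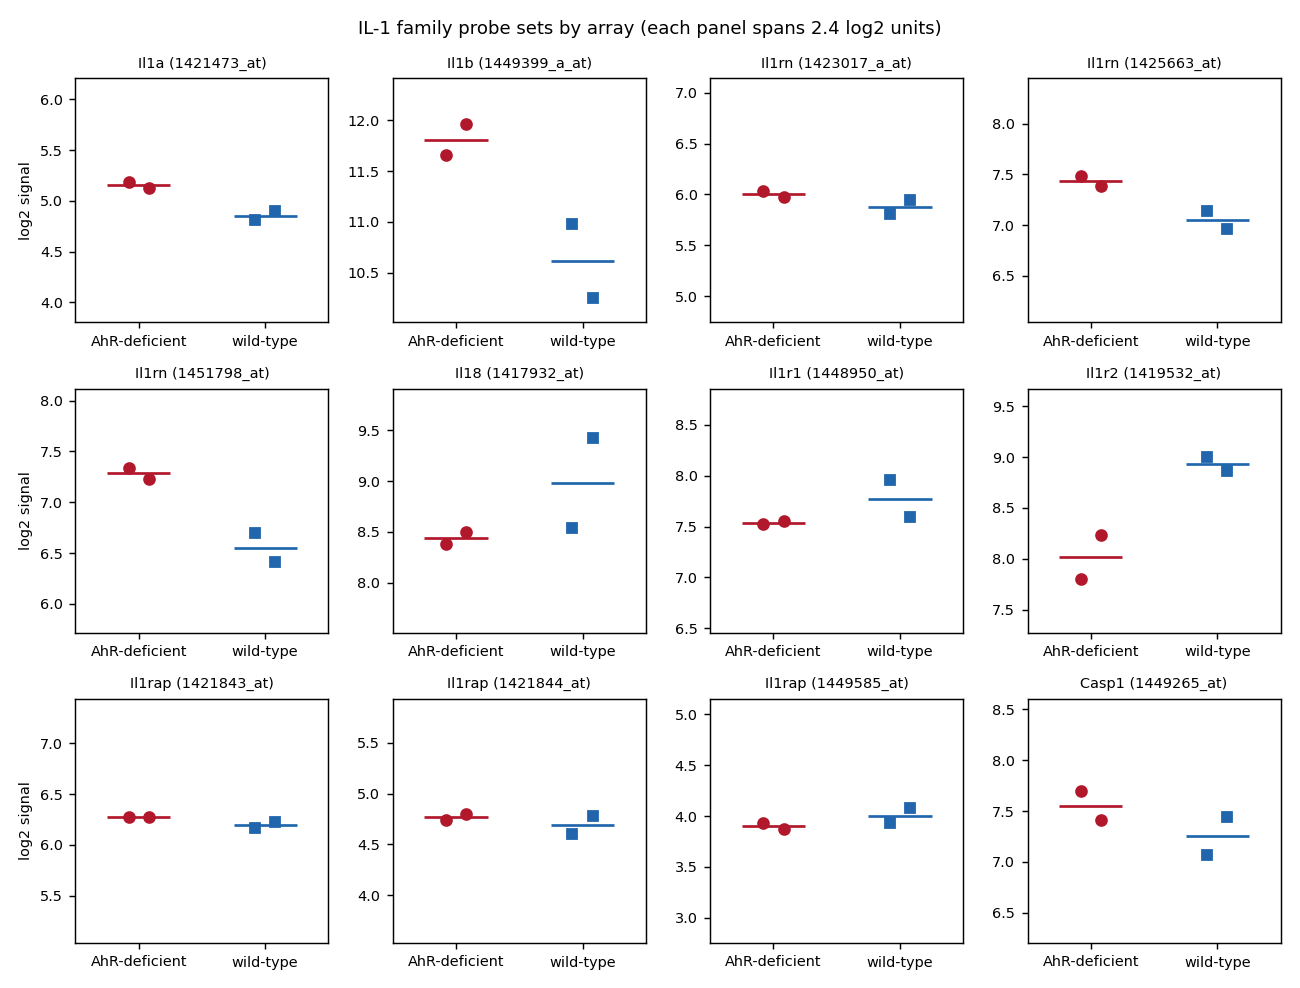
Log2 signal (vertical axis, each panel spanning 2.4 units) of the 12 probe sets in AhR-deficient cells (circles, left) and wild-type cells (squares, right), 1 point per array with the mean as a line. Il1b, Il1a and all 3 Il1rn probe sets lie higher in both AhR-deficient arrays, and Il18, Il1r1 and Il1r2 lie lower in both. Il1rap 1421843_at also lies higher and Il1rap 1449585_at lower, each by a narrow gap.

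Of the agonist cytokines, Il1b had 11.66 and 11.96 in AhR-deficient cells, against 10.98 and 10.25 in wild-type cells. The arrays did not overlap. The gap between the nearest arrays of the genotypes (0.68) was wider than that between the AhR-deficient arrays (0.30) and narrower than that between the wild-type arrays (0.73). The difference was 1.19 (SE 0.28), or 2.29-fold higher in AhR-deficient cells with a 95% interval from 1.35 to 3.87, and it did not pass adjustment (limma, adjusted p = 0.670). An absolute difference this large was seen for 0.438% of all probe sets. Without wild-type replicate 2, which had the lowest signal, the difference was 0.83, and without wild-type replicate 1 it was 1.56.

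Il1a, its neighbour on the chromosome, had 5.18 and 5.13 in AhR-deficient cells, against 4.81 and 4.90 in wild-type cells. All 4 signals lay below the medians of their arrays (5.60 to 5.63), where background makes up more of the signal and small differences are hard to read. The difference of 0.30 (SE 0.08) did not pass adjustment (limma, adjusted p = 0.710). It was 0.20 when 16 was added on the linear scale, which damps dim probe sets.

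The antagonist gene Il1rn was measured by 3 probe sets, which agreed in direction and not in size. The probe set with the greatest difference, 1451798_at, had 7.34 and 7.23 in AhR-deficient cells, against 6.69 and 6.41 in wild-type cells. Its arrays were separated by more than the gap between replicates of either genotype. The difference was 0.73 (SE 0.13), or 1.66-fold with a 95% interval from 1.30 to 2.11, and its adjusted p of 0.533 in limma was the smallest of the family. The probe set 1425663_at had 7.49 and 7.38 in AhR-deficient cells, against wild-type signals of 7.14 and 6.96, and differed by 0.38 (SE 0.10; limma, adjusted p = 0.710). The third, 1423017_a_at, had 6.04 and 5.97 in AhR-deficient cells, against 5.81 and 5.95 in wild-type cells, and its difference of 0.13 (SE 0.09) had a 95% interval from -0.12 to 0.37. That difference lay between 0.05 and 0.20 when 1 array was left out, lowest without wild-type replicate 1 and highest without wild-type replicate 2. The intervals of the first and the third probe set do not overlap, and the difference between them was not tested. Which Il1rn transcripts each probe set detects is not given in the annotation used here.

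Il18, which acts with interleukin-12 to induce interferon gamma, had 8.38 and 8.50 in AhR-deficient cells, against 8.54 and 9.42 in wild-type cells. Wild-type replicate 2 alone was high, and the other wild-type array lay within 0.04 of the nearer AhR-deficient array. The difference of -0.54 (SE 0.31; limma, adjusted p = 0.884) was -0.10 without wild-type replicate 2, and with replicate 1 left out instead it was -0.98. Its interval reached from -1.39 to 0.31, which includes no difference.

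Casp1, the protease that matures both interleukin-1 beta and interleukin-18, had 7.70 and 7.41 in AhR-deficient cells, against 7.07 and 7.44 in wild-type cells. The genotypes overlapped. The difference was 0.30 (SE 0.18; limma, adjusted p = 0.889), and leaving out wild-type replicate 1 gave 0.11 and leaving out wild-type replicate 2 gave 0.49.

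Among the receptors, the decoy Il1r2 had the widest difference, with 7.80 and 8.23 in AhR-deficient cells, against 9.0 and 8.86 in wild-type cells. The genotypes did not overlap, and the gap between the AhR-deficient arrays (0.43) was the wider of the gaps within a genotype. The difference was -0.91 (SE 0.17), or a signal 1.88-fold higher in wild-type cells with a 95% interval from 1.36 to 2.60, and it did not pass adjustment (limma, adjusted p = 0.553). An absolute difference of this size was seen for 0.840% of all probe sets. It lay between -1.13 and -0.70 when any 1 array was left out.

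The signalling receptor Il1r1 had 7.52 and 7.55 in AhR-deficient cells, against 7.96 and 7.59 in wild-type cells. Wild-type replicate 1 was high and wild-type replicate 2 lay 0.03 above the nearer AhR-deficient array. The difference of -0.23 (SE 0.15; limma, adjusted p = 0.891) was -0.05 without wild-type replicate 1, and with replicate 2 left out instead it was -0.42. Whether the differences of Il1r1 and Il1r2 were unequal was not tested.

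The accessory protein gene Il1rap was the least different member. Its 3 probe sets differed by 0.08 (SE 0.08), 0.08 (SE 0.10) and -0.11 (SE 0.09), with adjusted p-values from 0.911 to 0.939 in limma. The first, 1421843_at, had 6.28 and 6.27 in AhR-deficient cells, against 6.16 and 6.23 in wild-type cells, and its interval reached from -0.13 to 0.29. The other two were dim, and 1449585_at lay below the 25th percentile of every array, at 3.93 and 3.87 in AhR-deficient cells, against 3.93 and 4.08 in wild-type cells.

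**Figure D2:**
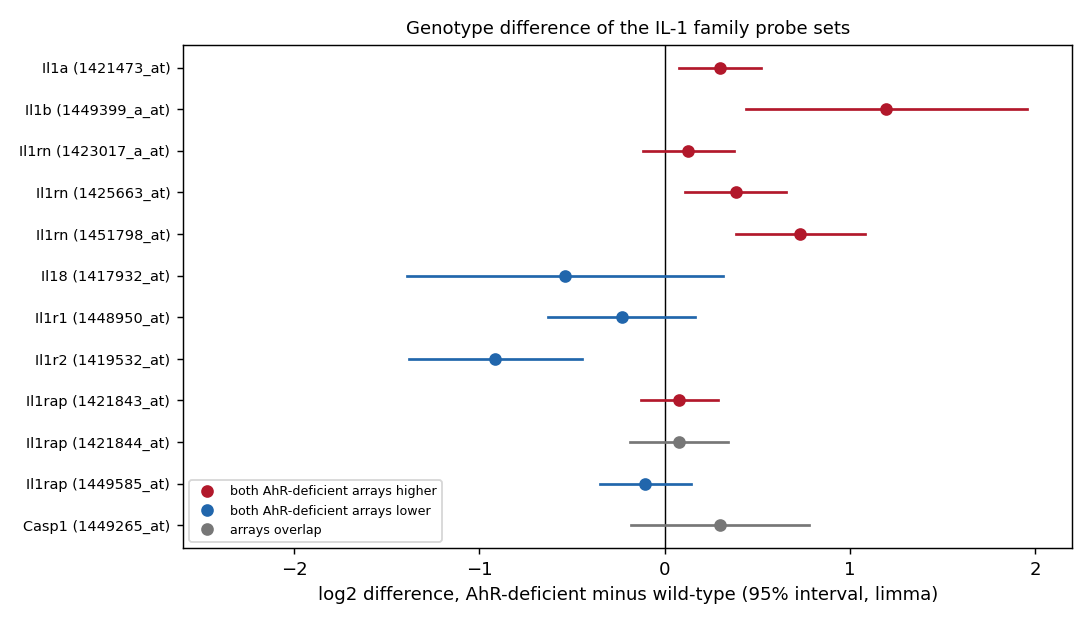
Log2 difference, AhR-deficient minus wild-type (horizontal axis), of each probe set with its 95% interval from limma, not adjusted for the number of probe sets. Red marks probe sets with both AhR-deficient arrays higher, blue those with both lower and grey those that overlap; the intervals of Il1a, Il1b, 2 of the 3 Il1rn probe sets and Il1r2 do not include 0.

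Other genes of the pathway were described from a list of 71, of which 57 had a probe set, with each gene represented by its probe set of highest mean signal. None passed adjustment in limma (smallest adjusted p = 0.533), where 0.0323% of all genes did. At an unadjusted p under 0.05 there were 6 of the 57 genes, 5 higher and 1 lower, against 6.54% of all genes. Both AhR-deficient arrays were higher for 15 of the 57, against 18.8% of all genes, and lower for 6, against 16.6%. The median difference was 0.04, and over all genes it was 0.01. The list was also chosen with earlier results of these data known, so its shares test nothing about the pathway.

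Of 17 inflammasome and processing genes, 5 were higher without overlap, against 18.8% of all genes, and 2 lower, against 16.6%. Their median difference was 0.16. Ctsb, the lysosomal protease cathepsin B, which is linked to activation of the NLRP3 inflammasome, had 10.35 and 9.94 in AhR-deficient cells, against 8.71 and 9.14 in wild-type cells. This difference of 1.22 (SE 0.21; limma, adjusted p = 0.533) was about as large as that of Il1b. Pycard, which encodes the adaptor ASC that joins the sensor to caspase-1, had 7.38 and 7.30 in AhR-deficient cells, against 6.93 and 6.94 in wild-type cells. The genotypes did not overlap and differed by 0.41 (SE 0.08; limma, adjusted p = 0.571). Serpinb1a, an inhibitor of neutrophil-type serine proteases, differed by 0.70 (SE 0.15; limma, adjusted p = 0.624). The sensor Nlrp3 had 5.83 and 5.49 in AhR-deficient cells, against 5.59 and 5.40 in wild-type cells, which overlapped.

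Of 13 adaptors and kinases below the receptor, 4 were higher without overlap, against 18.8% of all genes, and 0 lower, against 16.6%. Their median difference was 0.00. Peli1, an E3 ubiquitin ligase of the IL-1 and Toll-like receptor pathways, differed by 0.41 (SE 0.10; limma, adjusted p = 0.694). Tab3, a partner of the kinase TAK1, differed by 0.36 (SE 0.08; limma, adjusted p = 0.647), and Traf6, the ubiquitin ligase downstream of the IRAK kinases, by 0.17 (SE 0.07; limma, adjusted p = 0.857). Myd88, the shared adaptor, had 6.87 and 6.64 in AhR-deficient cells, against 6.83 and 6.81 in wild-type cells, which overlapped.

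Of the other cytokines of the family, listed together with Il18bp, 3 genes were measured. Il33, Il18bp and Il1f10 differed by -0.03 (SE 0.08), 0.00 (SE 0.14) and -0.14 (SE 0.07). Il33 lay below the 25th percentile of every array, at 3.49 and 3.56 in AhR-deficient cells, against 3.58 and 3.53 in wild-type cells. Its small difference is therefore hard to read. Il18bp encodes the soluble inhibitor of interleukin-18. The 4 other receptors, Sigirr, Il18rap, Il18r1 and Il1rl2, overlapped between genotypes, with differences from 0.03 to 0.12. Leaving out 1 array moved that of Sigirr between 0.01 and 0.22 and that of Il18r1 between -0.21 and 0.34.

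Of 20 transcripts known to be induced by IL-1 or Toll-like receptor signals, 6 were higher without overlap, against 18.8% of all genes. Another 3 were lower, against 16.6%, and the median difference of the 20 was 0.02. Ptgs2, the inducible prostaglandin synthase, had 4.92 and 5.85 in AhR-deficient cells, against 6.81 and 6.34 in wild-type cells. It differed by -1.19 (SE 0.36; limma, adjusted p = 0.767). The lowest Ptgs2 signal was in AhR-deficient replicate 1, without which the difference was -0.72. Ccl3, a chemokine, differed by 0.58 (SE 0.23) and Nfkbiz, an NF-kB regulator, by 0.34 (SE 0.14), both with an adjusted p of 0.857 in limma. The Ccl3 difference was 0.26 when AhR-deficient replicate 1 was left out and 0.89 when AhR-deficient replicate 2 was. The Nfkbiz difference was 0.17 when wild-type replicate 1 was left out and 0.52 when wild-type replicate 2 was. Nfkbia, the inhibitor induced directly by NF-kB, had 11.57 and 11.98 in AhR-deficient cells, against 12.22 and 11.38 in wild-type cells, and so spread more between the wild-type arrays than between genotypes. Cxcl2 had 10.57 and 10.54 in AhR-deficient cells, against 10.44 and 10.61 in wild-type cells, which overlapped.

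**Figure D3:**
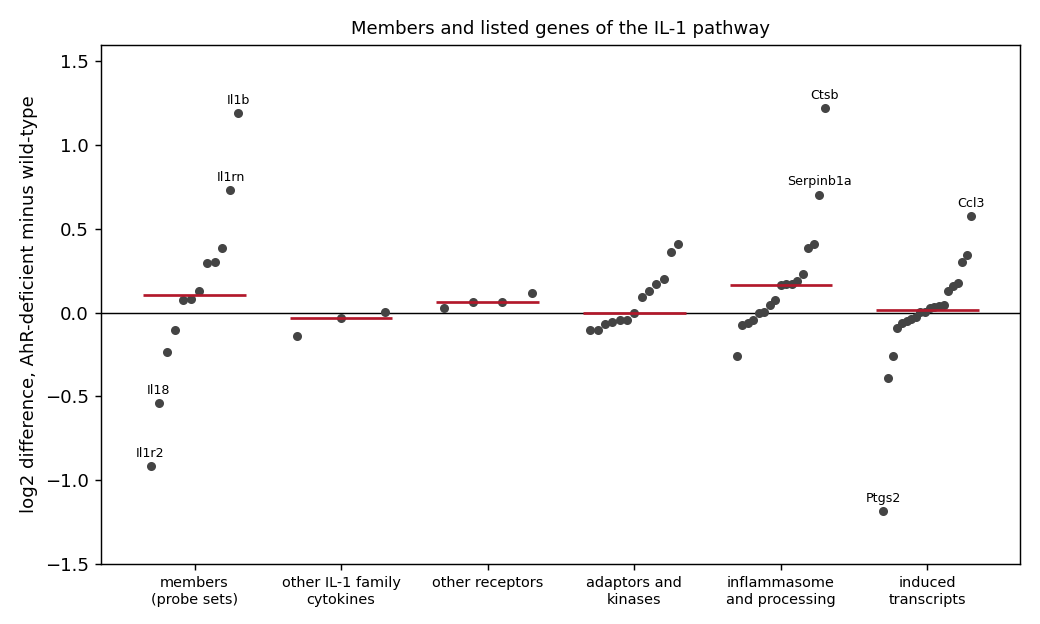
Log2 difference, AhR-deficient minus wild-type (vertical axis), of the 12 members' probe sets and of 57 listed pathway genes in 5 groups; each point is a probe set or gene, the red line is the group's median, and points beyond 0.5 are named. Most listed genes lie near 0, with Ctsb, Serpinb1a and Ccl3 above 0.5 and Ptgs2 below -0.5. The group of other family cytokines includes the inhibitor gene Il18bp.

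Il1b had both the widest range over the 4 arrays and the highest mean signal of the family, and the genes closest to its pattern were sought among 618 genes with at least 0.5 times that range. Likeness was the root mean square distance between log2 signals, each centred on its mean over the 4 arrays. Sec24d, a coat protein of transport vesicles leaving the endoplasmic reticulum, was closest at 0.06, followed by Fabp5, a fatty acid-binding protein, at 0.18. Cyba, a membrane subunit of the phagocyte NADPH oxidase, and Pik3cg, a phosphoinositide 3-kinase subunit, were at 0.18 and 0.22. Sec24d had 9.33 and 9.54 in AhR-deficient cells, against 8.70 and 7.83 in wild-type cells, with the same low wild-type replicate 2 as Il1b. A pattern over 4 arrays is a weak description, and these genes share the arrays and their normalisation with Il1b.

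**Figure D4:**
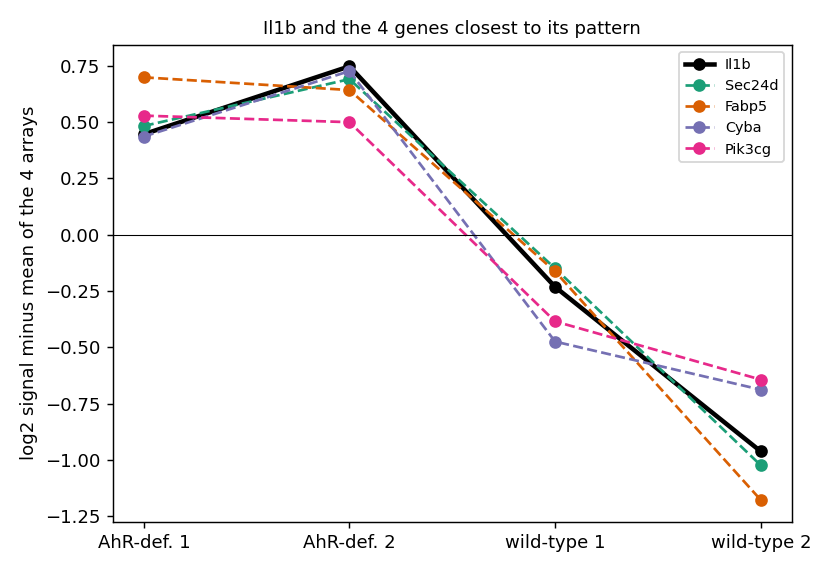
Log2 signal minus the mean of the 4 arrays (vertical axis) for Il1b (solid black) and the 4 genes closest to it (dashed), by array; the lines join values of a gene and mark no order among replicates. All 5 genes are above their mean in both AhR-deficient arrays and below it in both wild-type arrays. The 4 were chosen for likeness to Il1b on these same arrays, so this follows from the choice.

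Other cells could carry transcripts of the family, and in sorted cells measured in bulk, fewer cells of a type and less RNA per cell cannot be told apart. Keratinocyte markers, on 14 of 15 listed genes, summed to a linear signal of 1083 and 610 in AhR-deficient cells, against 554 and 595 in wild-type cells, with 6 of the 14 higher without overlap, against 18.8% of all genes, and 2 lower, against 16.6%. Krt15, Ivl and Sfn lay below the 25th percentile on every array. Among the higher were Dsp (difference 1.32), Krt14 (0.57) and Krt5 (0.27), and the lower were Dsc3 (-0.14) and Ivl (-0.05). Lor had 8.53 and 6.72 in AhR-deficient cells, against 6.72 and 6.91 in wild-type cells, and so was high on AhR-deficient replicate 1 alone. None of the 14 passed adjustment in limma (smallest adjusted p = 0.795). Neutrophil, monocyte and macrophage markers, on 11 of 12 genes, summed to 1073 and 769 in AhR-deficient cells, against 698 and 782 in wild-type cells, which overlapped. Without overlap, 3 of the 11 were higher, against 18.8% of all genes, and 2 lower, against 16.6%. Among them S100a8 and S100a9, defining transcripts of neutrophils, lay below the 25th percentile on every array. Lyz2, a lysozyme of myeloid cells, had 7.48 and 6.48 in AhR-deficient cells, against 6.18 and 5.92 in wild-type cells. The other higher ones were C1qa (difference 1.10) and Cd14 (0.71). Adgre1, which encodes F4/80, went the other way, with 6.92 and 5.84 in AhR-deficient cells, against 7.11 and 7.43 in wild-type cells. The other lower one was Mpo (-0.06). None of the 11 passed adjustment in limma (smallest adjusted p = 0.819). T cell markers, on 8 of 10 genes, summed to 274 and 293 in AhR-deficient cells, against 378 and 338 in wild-type cells. Without overlap, 4 of the 8 were lower, against 16.6% of all genes, and 0 higher, against 18.8%. The lower were Cd3g (difference -1.26), Trat1 (-0.94), Cd2 (-0.70) and Cd3d (-0.56). Each lay below the 25th percentile on both AhR-deficient arrays and on neither wild-type array. Cd3e (-0.07), with the highest signals of the 8, overlapped. None of the 8 passed adjustment in limma (smallest adjusted p = 0.374). Langerhans and dendritic cell markers, on 11 of 12 genes, summed to 23464 and 22170 in AhR-deficient cells, against 16392 and 20556 in wild-type cells. Of the 11, 6 were higher without overlap, against 18.8% of all genes, and 1 lower, against 16.6%. Among the higher were the MHC class II genes H2-Aa (difference 1.31) and H2-Ab1 (1.24). The lower was Csf1r (-1.05), and Cd207 (-0.07) and Epcam (-0.32) overlapped. None of the 11 passed adjustment in limma (smallest adjusted p = 0.306). Markers of fibroblasts summed to 269 and 288 in AhR-deficient cells, against 301 and 285 in wild-type cells, those of melanocytes to 176 and 176, against 172 and 180 in wild-type cells, and those of mast cells to 172 and 168, against 164 and 163 in wild-type cells. The part of these cell types in the members' differences was not tested.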

How the data were processed

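Expression was measured in 4 samples on 4 Affymetrix MOE430A arrays, 2 per genotype, grouped by sample titles. The authors deposited log2 signals, 1 per probe set and array. They came from affy and RMA (background correction, quantile normalisation, summary of probes), per the submitters' processing notes, whose versions are not given in the sources used here. Median array signals were 5.60 to 5.63 and were used unscaled. RMA draws dim signals together, so differences of dim probe sets are understated. Of 22690 probe sets, 64 controls were left out. A single symbol was annotated for 20380 probe sets; 691 had several symbols and 1555 had none. Of the symbols, 20351 matched RefSeq by Entrez identifier and 0 changed.

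All probe sets were fitted with limma 3.58.1 in R 4.3.3 (lmFit, eBayes, two-sided, Benjamini-Hochberg over 22626 probe sets). SE is moderated, and the number of arrays limits the precision (median SE 0.10). The labels call samples biological replicates without naming animals, so p-values measure only the spread between these samples. The labels differ on whether sheets or cell suspensions were cultured. Members and lists were chosen with earlier results of these data known. Named pathway genes were up to 3 per group by smallest p. Nlrp3, Myd88, Nfkbia, Cxcl2, Il1rl2, Lyz2, Adgre1, H2-Aa, H2-Ab1, Csf1r and Epcam were added after their values were seen. So were Dsp, Krt14, Krt5, Dsc3, Lor, C1qa, Cd14, Mpo, Cd3g, Trat1, Cd2, Cd3d and Cd3e. The fit was tested on simulated data. Alternatives were a replicate block, trend or robust eBayes, a dim filter, quantile normalisation again, median centring, array weights, 16 added on the linear scale, another probe set per gene and leaving out each array.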

Additional observations from a re-analysis of the deposited data

How the results depend on the processing

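No member or listed pathway gene was called under any alternative. Over all probe sets, 4 were called, against 0 with a replicate block, 8 with a trend in eBayes, 2 with dim probe sets left out, 0 with 16 added on the linear scale, and 0 to 0 when each array was left out; these causes were not tested. Same-numbered arrays of the genotypes deviated against each other (r = -0.31 over probe sets). With 2 arrays per genotype this cannot tell whether the numbers pair the samples, and the titles state no shared litter, day or batch. A crossed pairing, chosen after seeing the data, also called 0. Under the replicate block 4 of the 12 members' probe sets had an unadjusted p under 0.05, against 5 without it, and 3 without AhR-deficient replicate 1 or 2. A replicate block, trend or robust eBayes and the dim filter leave a difference unchanged, and array weights nearly so. Under these settings direction was fixed in advance, and no member or named pathway gene was called to begin with. Of 318 differences recomputed for 27 members' probe sets and named genes, these settings included, 309 kept direction and call and 9 turned in sign. These were Il1rap 1421844_at (-0.013 without wild-type replicate 1, up to 0.168 without another array), Il33 (-0.0696 to 0.000363), Il18bp (-0.131 to 0.134, -0.00561 with quantile normalisation again and -0.0101 with median centring), Il18rap (-0.0591 to 0.186) and Il18r1 (-0.212 to 0.339), the ranges being over arrays left out. A lone array in a genotype was assumed to vary like the other pair. Signal near background limits Il1a, Il33 and 2 of the Il1rap probe sets.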
